A study of Drosophila melanogaster with 7 samples.

Results

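Ribosomal protein genes of the cytoplasmic ribosome were followed in sorted ovarian cells of Drosophila melanogaster, in which Atx2 or a control target had been knocked down. The genes were chosen by symbol from the authors' gene table: every RpL, RpS or RpLP symbol followed by a number, leaving out RpS5a, RpS5b, RpS10a, RpS10b, RpS19a, RpS19b, RpL22 and RpL22-like. This gave 84 of the 13771 listed genes. They comprised 49 genes of the large subunit (RpL and RpLP), 31 of the small subunit (RpS) and 4 symbols ending in -like. Leaving out 8 genes did not remove all duplicates, since 6 pairs sharing a protein name remained (RpL10Aa and RpL10Ab, RpL34a and RpL34b, RpL37-1 and RpL37-2, RpS14a and RpS14b, RpS15Aa and RpS15Ab, RpS28a and RpS28b).

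Both groups carried the germline driver nos-GAL4::VP16 and the reporter bamP-GFP, in which the promoter of bam, a gene of dividing germline cysts, drives green fluorescent protein. In the 4 Atx2 KD libraries the driver expressed an shRNA against Atx2, which codes for the fly Ataxin-2 RNA-binding protein, and in the 3 Control KD libraries one against mCherry, a fluorescent protein. Live GFP-positive cells were isolated by flow cytometry from dissociated ovaries, and total RNA was sequenced after depletion of ribosomal RNA, without poly(A) selection. In all libraries digestion ran at 37 °C for 30 min, and RNA input was 18 ng. The age of the flies is not given in the sources used here, and nothing states whether libraries of a group came from separate flies, so p-values measure the spread between these libraries, which may be technical.

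Each ribosome joins a large and a small subunit, and each subunit holds 1 copy of most of its proteins on a scaffold of ribosomal RNA. The proteins are therefore needed in near equal amounts, and loss of 1 copy of many fly ribosomal protein genes gives the Minute phenotype of slow development and thin bristles. In the fly ovary, ribosome supply is tied to stem cell division and cyst differentiation, and several duplicated ribosomal protein genes are known for germline-enriched expression. Many of these mRNAs are controlled together at translation through the TOR pathway.

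The libraries held 65262402 to 84714639 estimated counts in Atx2 KD and 66657431 to 101809997 in the Control KD libraries. Levels are given as CPM (counts scaled to a common library total by TMM), or, where genes are compared with each other, as TPM, which also divides by transcript length. Atx2 itself was lower in the Atx2 KD libraries (233 ± 28.7 CPM, n = 4) than in the Control KD libraries (420 ± 27.3 CPM, SD, n = 3). The change was -0.85 ± 0.10 on the log2 scale (SE; edgeR quasi-likelihood test, Benjamini-Hochberg adjusted p = 0.00166). The labels call the cells germ cells. The germline helicase gene vas was present at 337 to 441 CPM in Atx2 KD and 365 to 473 CPM in Control KD libraries, and bam at 36.0 to 48.7 CPM in Atx2 KD and 32.2 to 35.5 CPM in Control KD libraries. Markers of other cells were present too. The 9 eggshell and yolk genes, products of later follicle cells, summed to 3266 to 18930 CPM in Atx2 KD and 18080 to 36380 CPM in Control KD libraries, with 5 of 9 called lower (9 of 9 when same-numbered libraries were compared as a block). The 4 muscle genes summed to 304 to 423 CPM in Atx2 KD and 156 to 234 CPM in Control KD libraries, with 4 of 4 called higher. The 4 haemocyte genes, of which 1 was under 1 CPM in every library, summed to 266 to 728 CPM in Atx2 KD and 154 to 323 CPM in Control KD libraries, with none called (2 higher with the block). The 6 early follicle and somatic gonad genes summed to 948 to 1127 CPM in Atx2 KD and 787 to 1090 CPM in Control KD. Of these 1 was called higher (2 with the block). The 6 germline genes summed to 986 to 1279 CPM in Atx2 KD and 1398 to 1858 CPM in Control KD libraries. Of these 1 was called higher and 3 lower, with or without the block. Without the block those called were nanos, bgcn, Rbp9 and orb, while vas and bam, given above, were not called. The log2 fold changes of the 6 genes ran from -0.84 to 1.35, with a median of -0.42. No heat shock gene of 7 was called (2 lower with the block). Of all tested genes 5.61% were called higher and 7.67% lower, and with the block 13.8% and 14.2%. The part of these shifts in the results below was not tested. In such bulk samples, fewer cells of a type and less RNA per cell cannot be told apart.

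Ribosomal protein mRNAs were among the most abundant in these cells. The members took 37.2 ± 1.44% of all TPM in Atx2 KD libraries (n = 4) and 36.6 ± 1.66% in Control KD libraries (SD, n = 3). Of the 50 genes with the highest mean TPM over the 7 libraries 38 were members, and of the 100 highest 73 were. The median member of the large subunit stood at 4801 TPM and that of the small subunit at 4249 TPM, beside a median of 7.03 TPM over all listed genes. Most members lay in a narrow band: 46 of 49 large and 28 of 31 small subunit genes were above 1500 TPM, between 2126 and 14010 TPM and between 2677 and 6823 TPM.

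RpL41, which codes for a very short peptide of the large subunit, had the highest TPM of all listed genes, at 14010 ± 1660 TPM (SD over 7 libraries). RpL27A, a large subunit protein, followed among the members at 7254 ± 442 TPM, and RpLP1, an acidic protein of the stalk, at 7188 ± 576 TPM. These last values differ by less than their spread. In the small subunit RpS7 had the highest level, at 6823 ± 395 TPM, and RpS25 at 6652 ± 394 TPM was among the highest, again closer to each other than their spread over libraries. The least abundant members outside the pairs and the -like genes were RpL9, at 2126 ± 175 TPM, and RpS27, at 2677 ± 98.2 TPM. A TPM depends on the transcript length assumed, and RpL41 has only 320 annotated exonic bases.

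**Figure D1:**
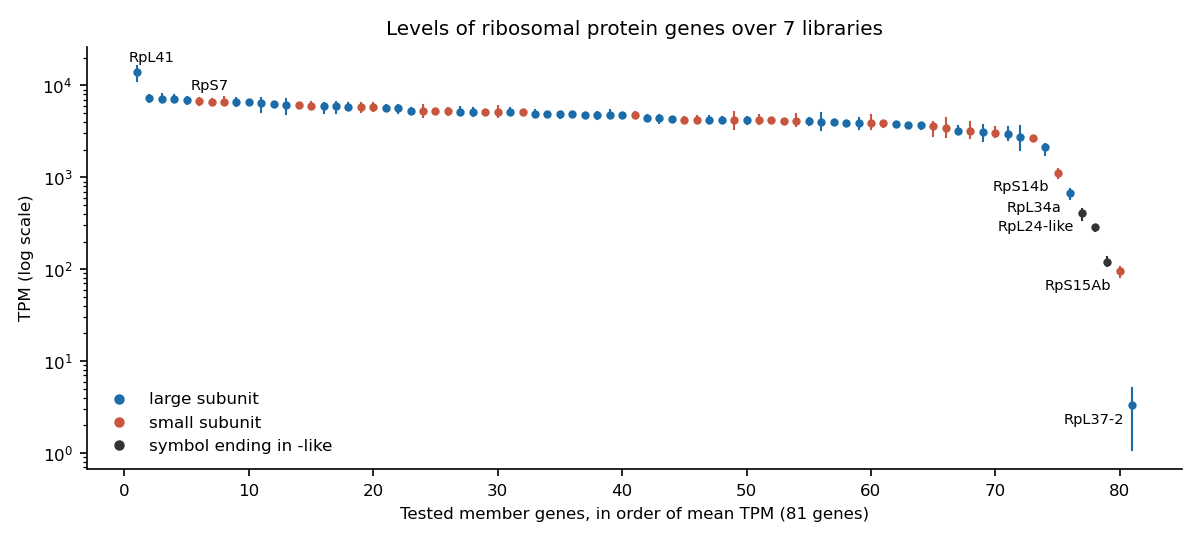
Mean TPM (log scale) of the 81 tested ribosomal protein genes over 7 libraries, in order of level. Points are means, vertical lines run from the lowest to the highest library, and colours give the subunit or a symbol ending in -like. Most genes lie above 1500 TPM, RpL41 stands at 14010 TPM, and the lowest points are duplicates and -like genes.

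The proportion of large to small subunit mRNA differed little between libraries. Summed TPM of large over small subunit genes was 1.75, 1.72, 1.77 and 1.78 in the Atx2 KD libraries and 1.77, 1.76 and 1.74 in the Control KD libraries. The groups overlapped, with means of 1.76 ± 0.0254 and 1.76 ± 0.0190 (SD, n = 4 and n = 3). Summed counts gave 1.79 ± 0.0232 in Atx2 KD and 1.78 ± 0.00819 in Control KD libraries.

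The level of the family as a whole moved between libraries, and its group means were close. Members took 12.3%, 15.2%, 12.6% and 12.3% of all counts in Atx2 KD replicates 1 to 4, and 12.6%, 14.1% and 12.2% in Control KD replicates 1 to 3. Replicate 2 was the highest library of each group, and the groups overlapped. Over the 77 members above 5 CPM in every library, the mean log2 CPM was 10.37, 10.74, 10.45 and 10.39 in Atx2 KD and 10.40, 10.64 and 10.41 in Control KD libraries. The group means differed by 0.002 on the log2 scale, against an SD of 0.171 among Atx2 KD and 0.139 among Control KD libraries. Every one of the 77 genes had its highest Atx2 KD value in replicate 2 and its highest Control KD value in replicate 2. Between same-numbered libraries the family level in Atx2 KD minus Control KD was -0.03, 0.09 and 0.05 for replicates 1, 2 and 3.

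**Figure D2:**
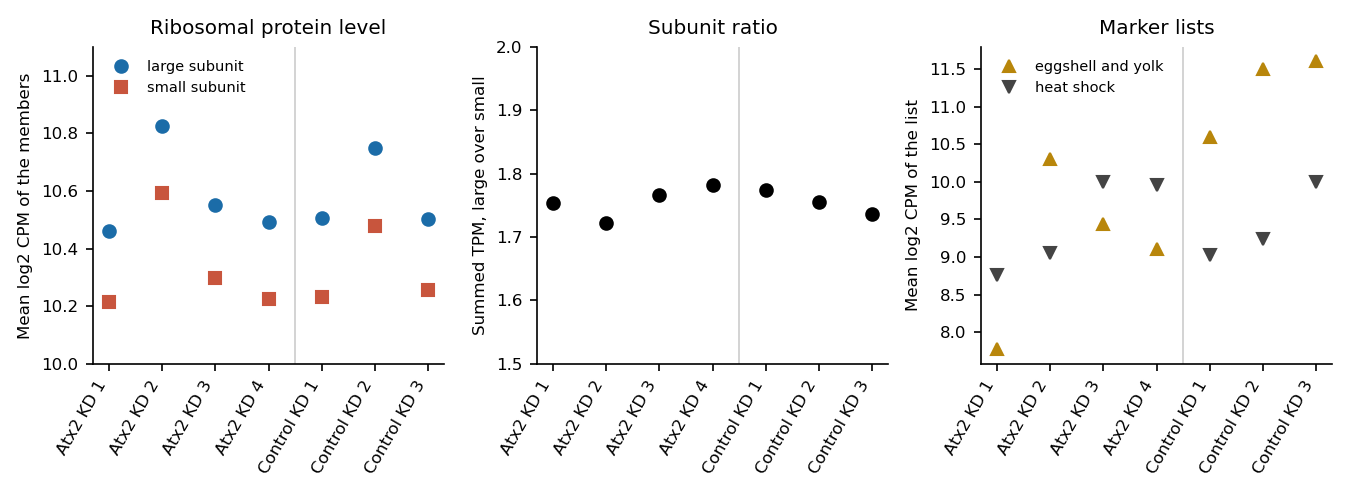
Left, mean log2 CPM of large and small subunit genes in each library; centre, the ratio of summed TPM, large over small; right, mean log2 CPM of the eggshell and yolk list and of the heat shock list. Points are single libraries, Atx2 KD left of the line and Control KD right of it. Replicate 2 is the highest ribosomal protein library in both groups, the ratio stays between 1.72 and 1.78, and the eggshell list is lower in Atx2 KD libraries.

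This shared movement made up most of the variation among libraries of a group. It held 89.5% of the within-group variance of the 77 genes. The median within-group SD of a gene was 0.16 on the log2 CPM scale, and 0.04 once the mean of the 77 genes in the same library was subtracted. Single members therefore kept a close ratio to the rest of the family among replicates.

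Of the 84 genes, 81 passed the filter on low counts and were tested in the fit over all genes. At an adjusted p of 0.05 none was higher in Atx2 KD and 2 were lower, RpL28 and RpS20, where 13.3% of the 10514 tested genes were called (5.61% higher and 7.67% lower). An unadjusted p under 0.05 was reached by 7 of 81 members and by 30.6% of all tested genes. DESeq2 called 2 members higher, and its share over all genes was not counted. The median log2 fold change was -0.001 over 48 tested large subunit genes, 0.003 over 30 small subunit genes and 0.006 over all tested genes. Of 81 members 76 lay within 0.3 of 0 on the log2 scale and 66 within 0.2. CPM values of the groups did not overlap for 1 member that was higher, RpS15Ab, and 3 that were lower, RpL28, RpS20 and RpL30, beside 27.4% of all tested genes (12.3% higher and 15.1% lower).

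**Figure D3:**
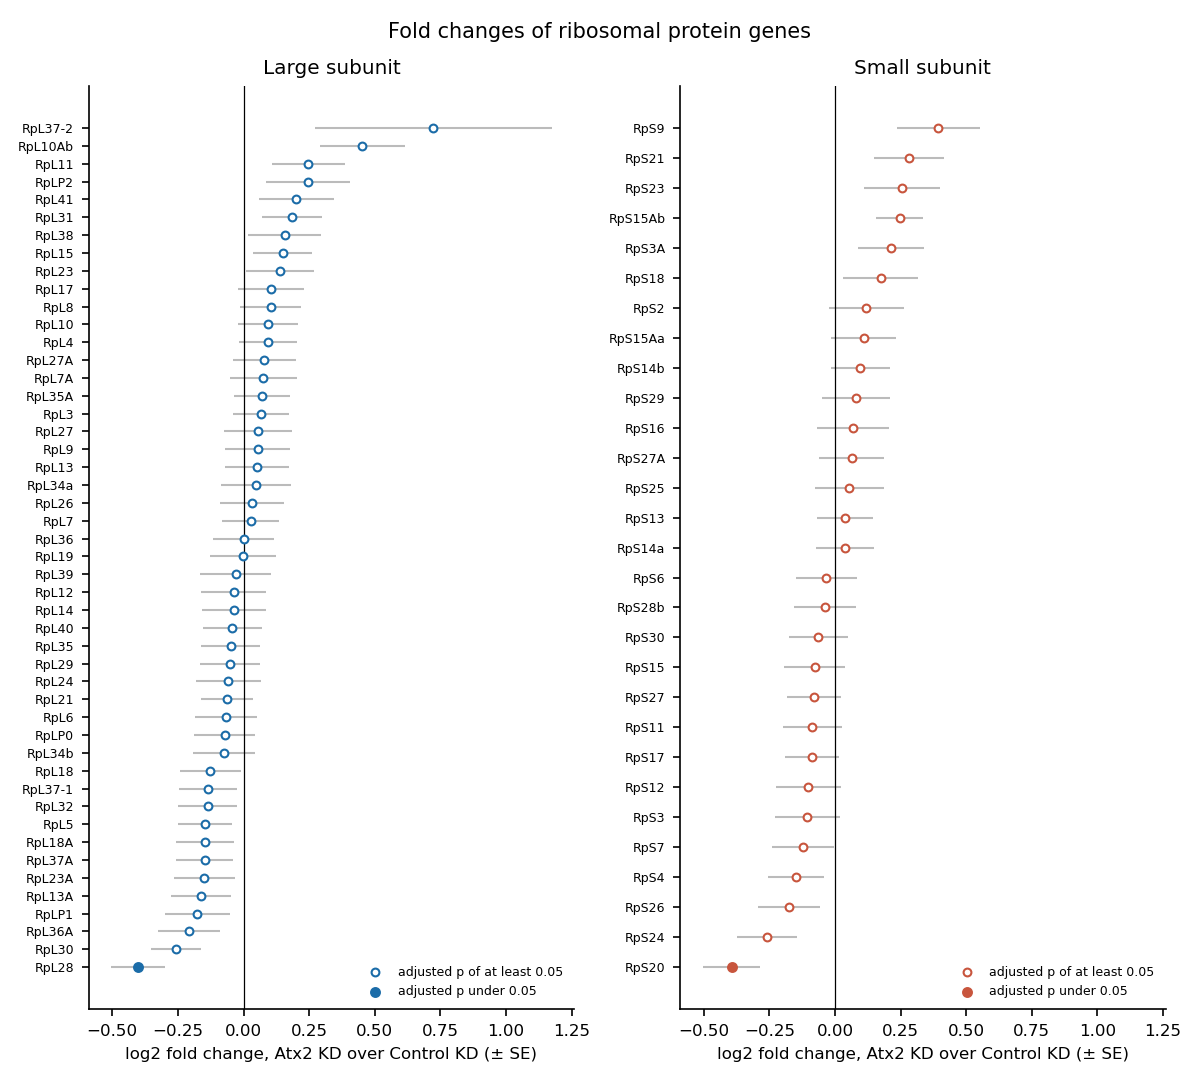
log2 fold change, Atx2 KD over Control KD, of tested large subunit genes (left) and small subunit genes (right), with SE bars. Filled points have an adjusted p under 0.05 in edgeR's quasi-likelihood test. RpL28 at -0.40 and RpS20 at -0.39 are the filled points, and the fold change of RpL37-2, 0.72, rests on few counts.

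The replicate numbers of the libraries were also entered as a block, which compares same-numbered libraries and removes the high level of replicate 2 from the spread. Atx2 KD replicate 4 has no same-numbered control and adds nothing to that difference. With the block 7 members were higher and 4 lower, 3 and 2 of them in the large subunit and 4 and 2 in the small subunit, where 28.0% of all tested genes were called (13.8% higher and 14.2% lower). The median SE of the members was 0.07 with the block, against 0.12 without it. The pairing rests on all genes, where the libraries numbered 1 correlated at 0.146 and a differently numbered pair reached 0.157. Over the members alone, deviations from the group means correlated at 0.0999, -0.32 and -0.531 between same-numbered libraries, so the 9 member calls made only with the block depend on a pairing that the members, beyond their common level, did not show. Scaling libraries on the ribosomal protein genes themselves, without a block, gave 1 higher and 2 lower, beside 5.01% of all tested genes (2.11% higher and 2.90% lower). Scaling and block together gave the same 11 genes as the block alone, beside 24.3% (10.9% higher and 13.3% lower).

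RpL28, a large subunit protein without a bacterial counterpart, was lower in the knockdown. It had 1275, 1568, 1275 and 1377 CPM in Atx2 KD libraries, against 1698, 1973 and 1776 CPM in Control KD libraries. Each Atx2 KD library was below each Control KD library. Its fold change was -0.40 on the log2 scale, with an SE of 0.10 (adjusted p = 0.0366, and 0.00332 with the block). RpL28 (FBgn0035422) lies on chromosome 3L at 3220911 to 3222960, minus strand, in the BDGP6.54 assembly, and holds 5 snoRNA genes. Of its 1382 exonic bases, 61 overlap snoRNA:Or-CD11a and snoRNA:Or-CD11b on its own strand and 15 overlap nSMase on the other.

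RpS20, a protein of the head of the small subunit, fell by a similar amount. It had 1087, 1422, 1181 and 1210 CPM in Atx2 KD libraries, against 1536, 1765 and 1529 CPM in Control KD libraries. All Atx2 KD values lay below the Control KD values, with replicate 2 the highest of each group. On the log2 scale it changed by -0.39 ± 0.11 (SE; adjusted p = 0.0459, and 0.00426 with the block). RpS20 (FBgn0019936) lies on chromosome 3R at 20822181 to 20823356, plus strand, and 44 of its 564 exonic bases overlap CG17272 on the other strand.

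Both calls were close to the threshold. Leaving out single libraries gave adjusted p-values of 0.0161 to 0.136 for RpL28 and 0.0181 to 0.167 for RpS20. Among these fits the calls were kept only without Atx2 KD replicate 2. They were lost without Atx2 KD replicate 1, 3 or 4 and without Control KD replicate 1, 2 or 3, where the fold changes ranged from -0.44 to -0.34 for RpL28 and from -0.43 to -0.32 for RpS20. With the mean eggshell and yolk level as a covariate the fold changes were -0.18 for RpL28 and -0.12 for RpS20, with adjusted p-values of 0.480 and 0.636. That covariate did not overlap between the groups (7.77 to 10.3 in Atx2 KD and 10.6 to 11.6 in Control KD, mean log2 CPM), so it and the knockdown cannot be told apart.

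RpL30 and RpS24 were called lower with the block only. RpL30, a large subunit protein that in yeast also binds its own transcript, had 898, 1069, 932 and 930 CPM in Atx2 KD and 1088, 1264 and 1083 CPM in Control KD libraries, with an adjusted p of 0.106, and 0.0219 with the block. The groups did not overlap. For RpL30, 202 of 804 exonic bases overlap CG31793 on the other strand, and whether the authors' assignment used strand is not given in the sources used here. RpS24, a small subunit protein, had 1481, 1870, 1517 and 1531 CPM in Atx2 KD and 1799, 2146 and 1802 CPM in Control KD libraries, with an adjusted p of 0.162, and 0.0281 with the block. Here only Atx2 KD replicate 2 reached the range of the controls.

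RpL10Ab, a protein of the mobile stalk through which spent tRNA leaves the ribosome, had the highest fold change among members above 5 CPM. It had 1180, 1691, 1314 and 1113 CPM in Atx2 KD libraries, against 908, 1142 and 851 CPM in Control KD libraries. The groups overlapped only between Atx2 KD replicate 4 and Control KD replicate 2. On the log2 scale the difference was 0.45 ± 0.16 (SE). The test gave an adjusted p of 0.0961, of 0.00135 with the block and of 0.0389 with scaling on the ribosomal protein genes. That scaling set includes RpL10Ab itself. With that scaling and 1 library left out, the adjusted p ran from 0.0349 to 0.164.

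RpS9, a protein of the body of the small subunit close to the path of the mRNA, was the highest of the small subunit. It had 1408, 2055, 1587 and 1354 CPM in Atx2 KD libraries, against 1086, 1410 and 1160 CPM in Control KD libraries. Control KD replicate 2 lay within the range of the knockdown. On the log2 scale the difference was 0.39 ± 0.16 (SE). The test gave an adjusted p of 0.133, of 0.00200 with the block and of 0.0563 with scaling on the ribosomal protein genes. Of its 1018 exonic bases, 512 overlap an antisense RNA gene, asRNA:CR45874, so reads of the pair may not be separable.

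The other block calls were smaller. RpS21, a small subunit protein of the eukaryotic ribosome, had 580, 813, 642 and 555 CPM in Atx2 KD and 498, 578 and 523 CPM in Control KD libraries (adjusted p = 0.189, and 0.00974 with the block). RpS23, part of the decoding centre, had 1069, 1508, 1176 and 1052 CPM in Atx2 KD and 958, 1156 and 905 CPM in Control KD libraries (adjusted p = 0.269, and 0.0153 with the block). In both genes Control KD replicate 2 lay within the knockdown's range. RpL11, which joins the ribosome together with RpL5 and the 5S RNA, had 1116, 1560, 1227 and 1084 CPM in Atx2 KD and 960, 1176 and 1016 CPM in Control KD libraries (adjusted p = 0.269, and 0.0142 with the block). Its groups overlapped in the same way.

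None of the genes for the stalk proteins, which recruit translation factors, was called without the block. RpLP0, the base of the stalk, had 2737, 3478, 2915 and 2902 CPM in Atx2 KD and 2938, 3472 and 3076 CPM in Control KD libraries (log2 fold change -0.07 ± 0.12, adjusted p = 0.711). RpLP1 had 1879, 2408, 2003 and 1906 CPM in Atx2 KD and 2204, 2641 and 2103 CPM in Control KD libraries (-0.18 ± 0.12, adjusted p = 0.371). RpLP2, its partner, had 1138, 1692, 1216 and 1106 CPM in Atx2 KD and 1013, 1246 and 1003 CPM in Control KD libraries (0.24 ± 0.16, adjusted p = 0.340). Of these RpLP2 alone was called with the block, at an adjusted p of 0.0196, while RpLP1 had 0.167 and RpLP0 0.579. The difference between stalk genes was not tested.

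Subtracting the family mean in each library showed the spread of these genes without the shared movement. On that log2 scale RpL28 stood at -0.05, -0.12, -0.14 and 0.04 in Atx2 KD libraries and at 0.33, 0.30 and 0.39 in Control KD libraries. RpL10Ab stood at -0.16, -0.01, -0.09 and -0.27 in Atx2 KD and at -0.57, -0.49 and -0.67 in Control KD libraries, and RpS9 at 0.09, 0.27, 0.18 and 0.02 in Atx2 KD and at -0.32, -0.18 and -0.23 in Control KD libraries. None of these 3 genes overlapped between groups on this scale. RpS24 stood at 0.17, 0.13, 0.11 and 0.19 in Atx2 KD and at 0.41, 0.42 and 0.41 in Control KD libraries.

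Of the 77 members above 5 CPM in every library, 47 did not overlap between the groups relative to the family mean, 20 higher and 27 lower, where 20.0% of the 6897 genes above that level did not overlap against the same yardstick (7.66% higher and 12.3% lower). The yardstick is the members' own mean, which removes their shared movement and not that of other genes, and makes gains and losses balance among the members, so the 2 shares are not like for like. The shifts were small, and of these 77 genes 2 were called without the block.

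**Figure D4:**
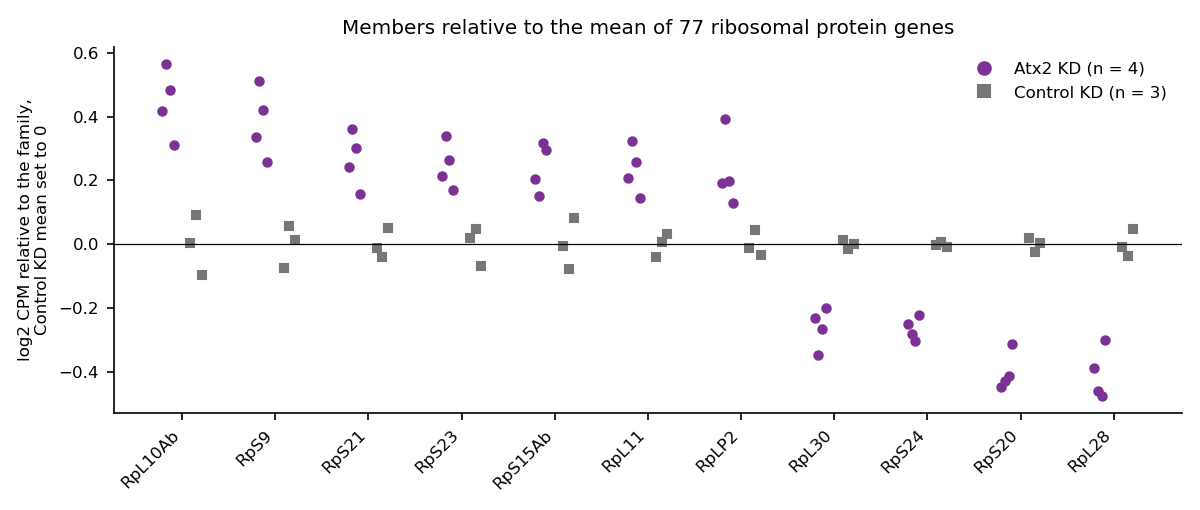
log2 CPM minus the mean of 77 ribosomal protein genes in the same library, shown with the Control KD mean of each gene set to 0, for the 11 genes called with the replicate block. Circles are the 4 Atx2 KD libraries and squares the 3 Control KD libraries. On this scale the groups do not overlap for any of the 11 genes, 7 of them higher and 4 lower in Atx2 KD. The genes were chosen by calls on these same libraries, so the separation adds no support to those calls.

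In 3 of the 6 remaining pairs the minor copy was close to silent. RpL10Aa had 0 counts in all 7 libraries, where 3 counts would be 0.0295 to 0.0460 CPM (no molecular identifiers are mentioned, so this limit covers counting error only). RpS28a had 4 counts in all, and RpL37-2 had 287 counts, with 0.516, 0.865, 0.492 and 0.586 CPM in Atx2 KD and 0.287, 0.186 and 0.626 CPM in Control KD libraries. The groups of RpL37-2 overlapped (log2 fold change 0.72 ± 0.45, adjusted p = 0.317).

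The other minor copies held measurable shares of their pair. RpS14b gave 21.2%, 21.4%, 20.0% and 21.8% of the pair's TPM in Atx2 KD and 20.5%, 20.9% and 20.1% in Control KD libraries. RpL34a gave 13.3%, 14.6%, 14.6% and 14.5% in Atx2 KD and 13.0%, 13.6% and 12.6% in Control KD libraries. RpS15Ab gave 3.21%, 2.91%, 3.20% and 3.28% in Atx2 KD and 2.91%, 2.72% and 3.03% in Control KD libraries. Groups overlapped in all 3 shares, and reads common to near-identical copies are divided by estimate, so these shares are uncertain.

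Within the pairs, RpL10Ab is described above. RpS15Ab, a low copy of a small subunit gene, had 35.9, 44.7, 41.3 and 38.8 CPM in Atx2 KD and 31.8, 35.8 and 34.0 CPM in Control KD libraries, with the lowest knockdown library just above the highest control. On the log2 scale the difference was 0.25 ± 0.09 (SE; adjusted p = 0.0974, and 0.0196 with the block). Its major copy RpS15Aa had a log2 fold change of 0.11 ± 0.13 (adjusted p = 0.599). RpL34a and RpL34b had 0.05 and -0.08, RpS14a and RpS14b 0.04 and 0.10, RpL37-1 -0.13 and RpS28b -0.04, all with adjusted p-values between 0.446 and 0.863.

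Of the 4 -like genes, 3 are related to yeast assembly factors rather than to ribosomal proteins of finished subunits, and they were far less abundant. RpL24-like stood at 412 ± 33.3 TPM, RpL7-like at 286 ± 15.4 TPM and RpLP0-like at 120 TPM over the 7 libraries. Their log2 fold changes were 0.08 ± 0.12, 0.01 ± 0.09 and 0.14 ± 0.11, with adjusted p-values of 0.680, 0.940 and 0.414. For RpL7-like, 1771 of 1793 exonic bases overlap CG34164 on its own strand, so its reads may not be separable from those of that gene. RpS28-like had at most 0.0751 CPM in any library and was not tested.

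Transcripts of the members were listed separately, 213 in all, of which 204 were tested. In 67 of the 81 members with reads for shares, 1 transcript held over 90% of the gene's counts. Only 64 members have more than 1 listed transcript. The 67 include genes with a single listed transcript, such as RpL14, RpL41, RpS20 and RpS24, which pass this limit by definition. The count therefore does not measure how often 1 of several transcripts dominated. Reads common to transcripts of a gene are divided by estimate, so transcript values and shares are uncertain. At an adjusted p of 0.05, 3 transcripts were higher and 2 lower in Atx2 KD, where 4.71% of 21728 tested transcripts were called (2.05% higher and 2.66% lower). Of the 3 higher, FBtr0333709 of RpL26 passed the filter only through the Atx2 KD libraries. With the block 2 were higher and 1 lower, beside 3.01% (1.33% higher and 1.68% lower), and none of them was among the 5. Leaving out Atx2 KD replicate 3, Control KD replicate 1 or Control KD replicate 2 left 0 called higher, and leaving out Atx2 KD replicate 1 left 1. None was called lower without Atx2 KD replicate 1, 3 or 4 or without Control KD replicate 1 or 2.

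RpL36, a large subunit gene, differed in the make-up of its transcripts. Its transcript FBtr0345321 had 218, 372, 254 and 171 CPM in Atx2 KD and 95.9, 73.2 and 112 CPM in Control KD libraries. All knockdown libraries were above all controls. Its share of the gene's counts was 18.8 ± 4.01% in Atx2 KD and 7.18 ± 1.95% in Control KD libraries (SD, n = 4 and n = 3), with a log2 fold change of 1.44 ± 0.28 (adjusted p = 0.0337, and 0.0681 with the block). At the gene level RpL36 was not called.

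RpS13, a small subunit gene, showed a like pattern in FBtr0079724, with 486, 502, 459 and 418 CPM in Atx2 KD and 322, 321 and 369 CPM in Control KD libraries. Its share was 28.5 ± 2.40% in Atx2 KD and 21.3 ± 2.71% in Control KD libraries, and its log2 fold change 0.47 ± 0.09 (adjusted p = 0.0362, and 0.0618 with the block). The groups did not overlap. The remaining transcript called higher, FBtr0333709 of RpL26, had 20.2, 42.5, 80.0 and 24.7 estimated counts in Atx2 KD and 0 in each Control KD library, which is at least 14.7-fold higher when each control library is set to 3 counts (adjusted p = 0.0299, and 0.125 with the block). It made up at most 0.0649% of the gene's counts. It passed the filter on low counts only through the Atx2 KD libraries, where it was high, so its call adds no support. Reads it shares with other RpL26 transcripts are divided by estimate, and the limit of 3 counts covers counting error only.

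The 2 transcripts called lower were minor forms. FBtr0089425 of RpS7 had 63.9, 68.8, 71.9 and 70.6 CPM in Atx2 KD and 87.5, 94.3 and 92.9 CPM in Control KD libraries, with a log2 fold change of -0.41 ± 0.07 (adjusted p = 0.0263, and 0.0503 with the block). FBtr0332633 of RpL5 had 40.1, 41.7, 46.3 and 46.1 CPM in Atx2 KD and 60.3, 59.4 and 53.6 CPM in Control KD libraries (-0.41 ± 0.09, adjusted p = 0.0438, and 0.0966 with the block). Neither pair of groups overlapped, while the genes as a whole were not called. With the block, FBtr0077621 of RpS21 (adjusted p = 0.0440) and FBtr0076423 of RpS9 (0.0490) were called higher and FBtr0073097 of RpL28 (0.0494) lower.

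**Figure D5:**
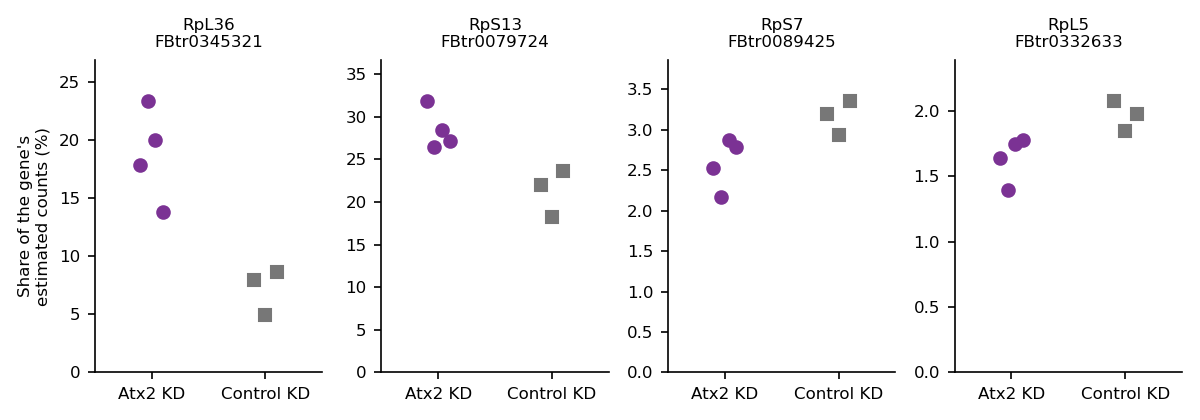
Share of a gene's estimated counts taken by each of 4 transcripts that were called, in percent, with axes from 0. Circles are Atx2 KD and squares Control KD libraries. The RpL36 and RpS13 transcripts take larger shares in Atx2 KD (means 18.8% against 7.18%, and 28.5% against 21.3%), and those of RpS7 and RpL5 smaller ones.

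Ribosomal protein genes outside the rule included 2 minor copies that rose. Of 10 such genes 2 were called higher and none lower, beside 5.61% of all tested genes called higher and 7.67% called lower. RpS10a, a duplicate known for germline expression, had 16.3, 17.3, 15.5 and 17.6 CPM in Atx2 KD and 4.76, 5.05 and 4.60 CPM in Control KD libraries (log2 fold change 1.79 ± 0.10, adjusted p = 4.9e-05). RpS19b, another duplicate of that kind, had 37.2, 34.8, 31.3 and 37.5 CPM in Atx2 KD and 21.7, 19.7 and 21.3 CPM in Control KD libraries (0.75 ± 0.08, adjusted p = 0.00122). Their major copies RpS10b and RpS19a had log2 fold changes of -0.02 and -0.05, in the range of the members. The other minor copies of the list, RpS5b and RpL22-like, did not rise. They had log2 fold changes of -0.07 and -0.28 (adjusted p = 0.741 and 0.538).

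Some genes that build ribosomes were lower in the knockdown. Of 24 ribosome assembly genes none was called higher and 6 lower, with a median log2 fold change of -0.19 beside 0.006 over all tested genes, of which 5.61% were called higher and 7.67% lower. They were the RIO kinases RIOK1 (-0.34) and RIOK2 (-0.32), the RNA polymerase I genes Polr1B (-0.40) and Tif-IA (-0.30), the export adaptor Nmd3 (-0.35) and the helicase ais (-0.43), with adjusted p-values from 0.00971 to 0.0469. None of the 24 was called with scaling on the ribosomal protein genes, where 2.11% of all tested genes were called higher and 2.90% lower. With the block 1 was higher and 11 lower, where 13.8% of all tested genes were called higher and 14.2% lower. The difference between this list and the ribosomal proteins was not tested. Of 12 regulators of ribosomal protein expression, none was called higher and 1 lower. That count is near the share of all tested genes called lower, 7.67%. Thor, the translation repressor 4E-BP, had 177, 180, 127 and 141 CPM in Atx2 KD and 219, 233 and 202 CPM in Control KD libraries (-0.48 ± 0.13, adjusted p = 0.0390, and 0.00445 with the block). That call was lost with scaling on the ribosomal protein genes (adjusted p = 0.0967), where none of the 12 was called. With the block 2 of the 12 were lower, near the share of 14.2% of all tested genes. The other was S6k, a kinase of the TOR pathway. It had 206, 198, 214 and 220 CPM in Atx2 KD and 238, 259 and 237 CPM in Control KD libraries (adjusted p = 0.0606, and 0.0270 with the block).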

How the data were processed

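RNA of 4 Atx2 KD and 3 Control KD libraries was analysed. Per the submitters' processing notes, bcl2fastq 2.20, Trim Galore 0.6.7, cutadapt 2.10 and Salmon 1.9.0 were used. The deposited tables hold Salmon's estimated counts, not normalized per the labels, and TPM computed by the authors' Salmon run. The index, build, annotation and use of strand are not given in the sources used here. Gene positions come from the Ensembl annotation of BDGP6.54, matched by FlyBase ID for 84 of 84 members.

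Estimated counts were rounded. Low genes were removed by filterByExpr, set to a count of 10 and a total of 15, and libraries were scaled by TMM and tested with edgeR 4.0.16 (quasi-likelihood, two-sided) in R 4.3.3. Benjamini-Hochberg adjustment at 0.05 covered all genes or all transcripts. The SE is the fold change divided by the square root of F. Members and gene lists were chosen with earlier results of these data known. Named genes were those called, the 3 highest and 3 lowest by TPM in each subunit, the 3 largest changes each way above a mean of 5 CPM, stalk genes, paired and -like genes and Atx2. 1 gene that this rule names is not reported here. Genes called with the block were added after their values were seen. The listed symbols nos and Tor were matched to nanos and mTor.

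Replicate numbers come from the titles. Deviations from group means correlated between same-numbered libraries over genes (r = 0.146, 0.336 and 0.519), so the numbers were taken to pair the libraries. Differently numbered libraries ran from -0.383 to 0.157 over genes, so the value for replicate 1, 0.146, does not stand out. Over the members alone the same-numbered correlations, which leave out a shift common to all members, were 0.0999, -0.32 and -0.531. There differently numbered libraries reached 0.56. Chi-square per degree of freedom between libraries of a group was 45.6 to 236, so each counted as 1 replicate. Alternatives were DESeq2 1.42.0, upper-quartile scaling, TMM without members, no filter, limma 3.58.1 on log2(TPM + 1), covariates, libraries numbered 1 and 2, and leaving out each library. Scaling on the ribosomal protein genes and the alternatives of the level relative to the family were added after seeing the data. The fits were also run on simulated counts that held no replicate effect and no movement shared by genes. That run could not check the calls made with the block.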

Additional observations from a re-analysis of the deposited data

Results flagged for a closer look

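In groups of 4 libraries, a value was marked where the gap of the highest or lowest library to the nearest other, divided by the whole range, exceeded Dixon's critical value. Of 45 such groups 10 were marked, all for a high Atx2 KD replicate 2, where chance marks about 1 in 20 groups. These values share the family's common level and are not independent. They were the members' share of all counts (15.2%), the large subunit share (9.65%) and the small subunit share (5.50%), and the CPM of RpL24-like (221.3), RpL27A (2543), RpL34b (1563), RpS14b (408.7), RpS24 (1870), RpS28b (1298) and RpS7 (3143). Control KD replicate 2 was the highest of its group for the same genes, in a group too small for the rule.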

How the results depend on the processing

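The count of members called higher, 0, was 2 with DESeq2, 1 with upper-quartile scaling, 7 with log2(TPM + 1), 7 with the replicate block, 1 with the eggshell covariate, 1 with scaling on the ribosomal protein genes and 7 with that scaling and the block; leaving out 1 library gave 0 to 0, and 0 to 2 with that scaling. The count called lower, 2, was 0 with upper-quartile scaling, with libraries numbered 1 and 2 and with the eggshell covariate, 4 with log2(TPM + 1), with the block and with scaling plus block, and 0 to 2 when 1 library was left out, with or without that scaling. Shares over all genes or transcripts were not counted for DESeq2, upper-quartile scaling, log2(TPM + 1), the eggshell covariate or fits with fewer libraries. Counts under those settings therefore cannot be set against such a share. The subunit medians were 0.263 (large) and 0.243 (small) with the eggshell covariate, and -0.084 to 0.097 and -0.089 to 0.074 when 1 library was left out. Transcripts called higher, 3, were 10 with DESeq2 and 0 to 2 with 1 library left out; those lower, 2, were 8 with DESeq2, 1 with the block and 0 to 3. The 47 members that did not overlap relative to the family mean were 40 with the median as the family level and 48 with TPM. With 1 library left out they were 48 to 55, but fewer libraries can only remove overlaps. That range therefore could not show a loss.

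Signs turned for genes with fold changes near 0, none of them called. With the eggshell covariate RpL34b had 0.164, RpL37-1 0.088, RpLP0 0.193, RpLP1 0.078 and RpS28b 0.236. RpS28b had 0.017 with upper-quartile scaling and 0.021 with log2(TPM + 1), and RpL7-like -0.002 with libraries numbered 1 and 2 and -0.008 with scaling plus block. With 1 library left out the values ran from -0.014 to 0.173 for RpL24-like, -0.043 to 0.202 for RpL34a, -0.156 to 0.035 for RpL34b, -0.052 to 0.066 for RpL7-like, -0.048 to 0.098 for RpS14a, -0.004 to 0.180 for RpS14b and -0.138 to 0.050 for RpS28b, and for RpL7-like from -0.009 (with -0.006 also below 0) to 0.072 with scaling on the ribosomal protein genes. The cause was not tested. With the block, 16 of 25 named genes kept their side of the threshold and 9 gained a call. TMM without members, the heat shock covariate and no filter changed none of the 25.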

Other observations

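In the Ensembl annotation of BDGP6.54 the members lie on chromosome arms 2L (19), 2R (20), 3L (14), 3R (20), 4 (1) and X (10). Of the 84 genes, 26 hold 58 snoRNA genes, 24 have exonic overlap with a gene on the other strand and 9 with a gene on the same strand. RpL7-like shares 1771 of its 1793 exonic bases with CG34164 on its own strand.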
